A study of Homo sapiens with 8 samples.

Results

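HEK293 cells, a transformed human embryonic kidney line, gave signal for neurofilament subunits, for the progenitor filament proteins vimentin and nestin, and for several proteins of the neuronal cytoskeleton. The genes described are NEFL, NEFM, NEFH, INA, VIM, NES, STMN2, TUBB3, GAP43 and MAP1B. They were taken by symbol: every array feature (a spot with its own number) that had values in all 8 samples and was annotated to exactly one gene of this list was kept, with no choice by signal. This gave 14 features of 8 genes, out of 25094 features with values. NEFH and GAP43 had 1 annotated feature each, without values, and are not analysed here.

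The comparison is between populations of HEK293 cells that overexpress a noncoding transcript of the KLHL29 locus, transcribed from an intron; 4 samples carry it in sense and 4 in antisense orientation. All 8 carried the same linearised vector, pBudCE4.1, and were kept as mixed zeocin-resistant populations. The 4 samples of a construct were thawed from frozen cells of 1 transfection, so the construct and the transfected pool that carries it cannot be told apart, and p-values measure the spread between these cultures. Neither empty-vector nor untransfected cells were analysed here, and every difference is sense minus antisense. The dye was Cy3 for replicates 1 and 3 and Cy5 for replicates 2 and 4, in both constructs. Sense 4 and antisense 2 stand apart: by the submitters' criterion, the lowest mean coefficient of variation among the remaining 3 samples, they are the samples left out (0.189 without sense 4 and 0.119 without antisense 2). The members' differences without them are given beside each gene where they move the value most. In a bulk sample, fewer cells of a type and less RNA per cell cannot be told apart.

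Intermediate filaments are rope-like polymers of the cytoskeleton, and cells change their subunits as they mature. Neural progenitors build them from vimentin and nestin, while neurons use alpha-internexin (INA) and then the neurofilament light, medium and heavy chains, which set the calibre of axons. STMN2, TUBB3, GAP43 and MAP1B act beside these filaments in the growing axon, on microtubules and at the growth cone membrane. HEK293 cells have long been known to carry neurofilament subunits, and a neuronal or adrenal lineage of the original cell has been discussed for that reason.

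The RefSeq promoter table (GRCh38.p14) was searched for VIM and MAP1B, a pair whose features moved together across samples, and for a progenitor and a neuronal filament gene, NES and INA, for contrast. STMN2 moved with VIM and MAP1B as closely, and NEFL feature 7831 with NEFM feature 6316, and no sequence is shown for these. The 250 bases before the annotated start lie at chr10:17227991-17228240 on the plus strand for VIM, at chr5:72107225-72107474 on the plus strand for the first of 2 listed starts of MAP1B, at chr1:156677408-156677657 on the minus strand for NES and at chr10:103276888-103277137 on the plus strand for INA. Capitals mark matches on either strand to GGGCGG (the GC box) or TATAAA (the TATA box). They are printed 5′ to 3′ along the gene.
VIM: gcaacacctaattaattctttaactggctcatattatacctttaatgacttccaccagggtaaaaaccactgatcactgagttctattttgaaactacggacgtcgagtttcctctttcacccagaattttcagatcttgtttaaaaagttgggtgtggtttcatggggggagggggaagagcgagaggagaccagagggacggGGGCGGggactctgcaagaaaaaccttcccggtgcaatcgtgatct
MAP1B: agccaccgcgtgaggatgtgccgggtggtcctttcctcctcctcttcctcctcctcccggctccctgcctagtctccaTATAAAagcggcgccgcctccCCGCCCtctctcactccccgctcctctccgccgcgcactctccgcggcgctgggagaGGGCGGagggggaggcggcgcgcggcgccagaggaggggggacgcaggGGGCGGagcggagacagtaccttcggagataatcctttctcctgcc
NES: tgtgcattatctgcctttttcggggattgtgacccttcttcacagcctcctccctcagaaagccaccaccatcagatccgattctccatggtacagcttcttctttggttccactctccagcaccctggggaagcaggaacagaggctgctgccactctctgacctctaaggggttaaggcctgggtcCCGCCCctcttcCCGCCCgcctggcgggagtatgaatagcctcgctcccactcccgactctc
INA: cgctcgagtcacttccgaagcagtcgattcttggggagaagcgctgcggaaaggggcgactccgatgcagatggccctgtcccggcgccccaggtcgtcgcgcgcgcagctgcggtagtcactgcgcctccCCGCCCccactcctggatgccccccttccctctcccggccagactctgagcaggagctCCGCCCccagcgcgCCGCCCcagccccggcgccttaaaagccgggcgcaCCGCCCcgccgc

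VIM held 1 GC box, MAP1B 3, NES 2 and INA 4, against at least 1 in 42.6% of 35116 promoter windows of that length. MAP1B held the only TATA box of these windows, starting 172 bases before the start, and 10.7% of all windows held one. VIM was the least GC-rich of the 4, at 46.0%, and INA the most, at 72.8%, around a median of 58.0% over all windows. The CCAAT box (CCAAT) and the AP-1 site (TGANTCA) were found in none of the 4 windows, and occur in 32.0% and 6.57% of all. The arrays do not tell which start of MAP1B was used.

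NEFL, the light chain that forms the core of the neurofilament, was lower in the sense samples on both of its features. Feature 36913 read 2.80, 4.14, 2.78 and 2.43 in sense replicates 1 to 4, against 4.35, 4.74, 4.98 and 4.78 in antisense replicates 1 to 4 (intensity in units of 1000000000, used for all intensities below). Every sense sample lay below every antisense sample, with sense 2 the closest. On the log2 scale the means were 31.47 ± 0.33 and 32.13 ± 0.08 (SD, n = 4 each), which is 1.58-fold lower in sense. The difference was -0.66 (SE 0.16, interval -1.02 to -0.30 at 95%), with an unadjusted p of 0.002 in limma and an adjusted p of 0.23, so it did not pass the threshold of 0.05. Feature 7831 read 1.51, 1.63, 1.26 and 1.21 in sense replicates 1 to 4, against 1.57, 2.07, 1.71 and 1.67 in antisense replicates 1 to 4. There the constructs overlapped, since sense 2 exceeded antisense 1, and the difference was -0.33 (SE 0.15, adjusted p = 0.35), or -0.22 without sense 4. Within Cy3 the difference of feature 36913 was -0.74 and within Cy5 -0.59, so it was negative in both dyes.

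NEFM, the medium chain whose long tail forms side arms between filaments, lies next to NEFL in the genome. Its feature 6316 read 21.0, 28.4, 14.6 and 14.3 in sense replicates 1 to 4, against 23.5, 33.1, 21.3 and 24.0 in antisense replicates 1 to 4. Sense 3 and sense 4 were the lowest, but sense 2 was above 3 of the antisense samples. The difference was -0.42 (SE 0.22, interval -0.90 to 0.07, adjusted p = 0.39), -0.21 without sense 4, and -0.15 in the 3 against 3 samples without sense 4 and antisense 2. Across the 8 samples NEFM feature 6316 and NEFL feature 7831 ran together (r = 0.93 over the 8 samples, 4 of each dye, which within a construct come from 1 transfected pool). With the brighter NEFL feature, 36913, the correlation of NEFM feature 6316 was lower (r = 0.78). The other NEFM feature, 22515, is annotated to a different transcript record and read only 0.0626 to 0.182, within 1.33 to 3.17 times the inferred detection limit. It did not follow the first (r = -0.03), and its difference was -0.27 (SE 0.31, adjusted p = 0.68), -0.42 without sense 4 and -0.09 without antisense 2.

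INA, which neurons make before the neurofilament chains and which joins them in the same filament, had a difference near 0. It read 1.48, 1.85, 1.53 and 1.70 in sense replicates 1 to 4, against 1.64, 1.33, 1.69 and 1.57 in antisense replicates 1 to 4. The highest sample was sense 2 and the lowest antisense 2, with the rest interleaved. The difference was 0.07 (SE 0.14, interval -0.23 to 0.38, adjusted p = 0.81), and its sign was negative within Cy3 (-0.15) and in the 3 against 3 samples (-0.02). Its 8 samples spanned 1.39-fold, the narrowest span of the 14 features.

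**Figure D1:**
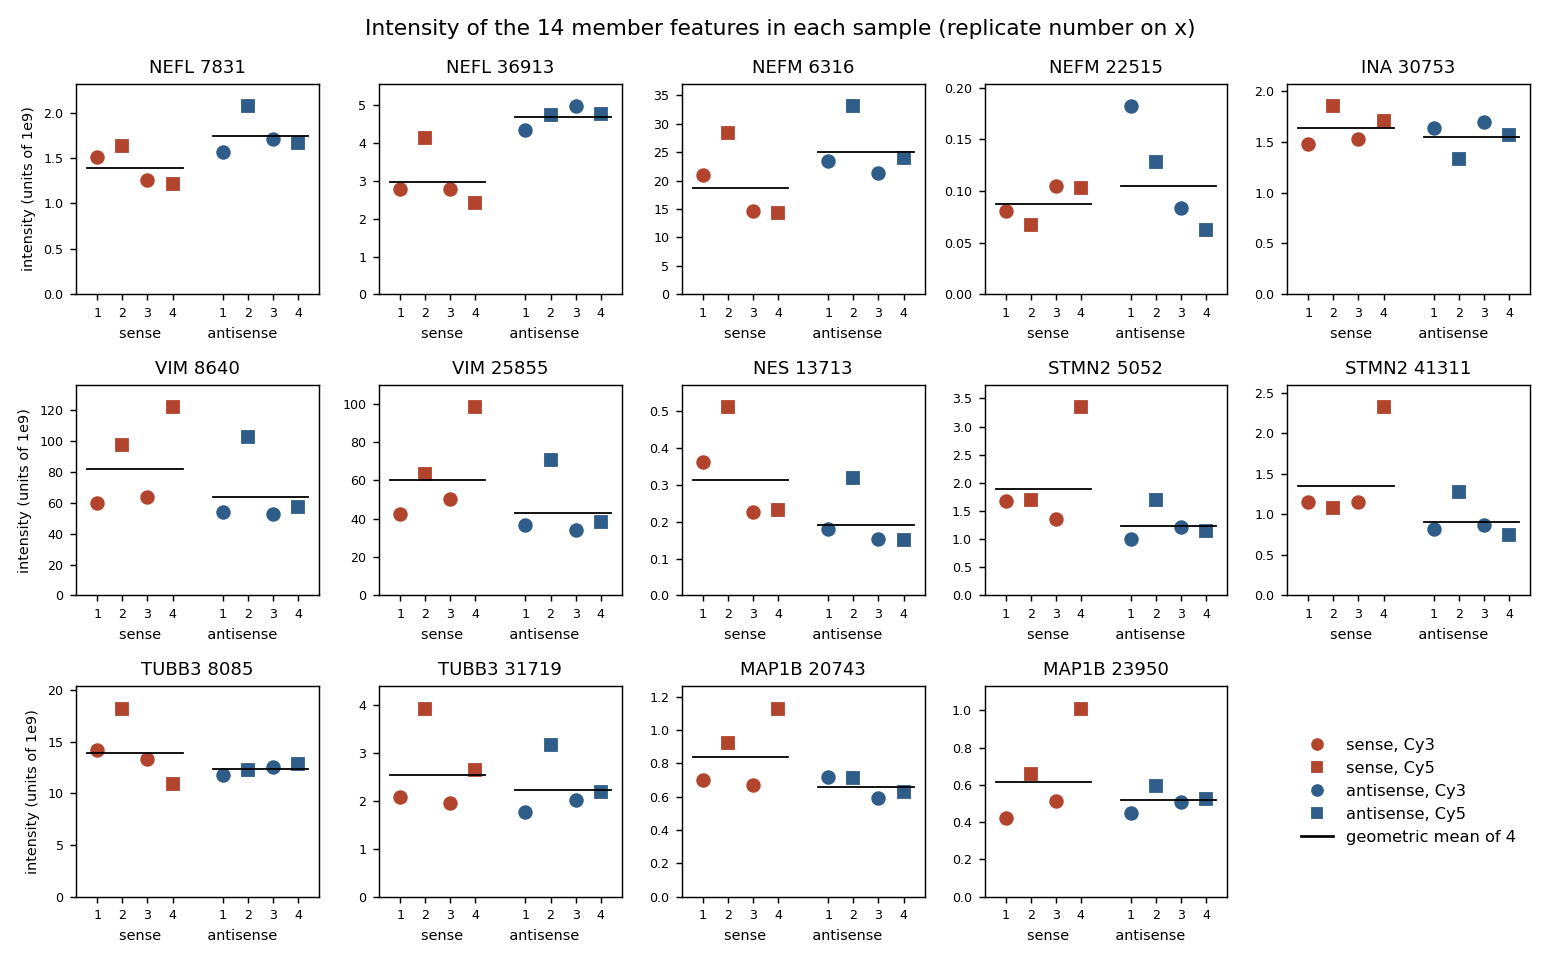
Intensity (units of 1e9, y axis from 0) of each of the 14 features in each of the 8 samples, by construct and replicate number (x axis), with Cy3 samples as circles, Cy5 samples as squares and the geometric mean of 4 samples as a line. NEFL feature 36913 is the one panel in which the constructs do not overlap, while sense 4 and antisense 2 stand high in the VIM and STMN2 panels.

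VIM, the filament protein of mesenchymal and progenitor cells, was higher in sense on average, but the constructs overlapped, with antisense 2 inside the sense range. Feature 8640 read 60.3, 97.6, 63.7 and 122 in sense replicates 1 to 4, against 54.2, 103, 52.7 and 57.4 in antisense replicates 1 to 4. Each sense sample was above antisense 1, 3 and 4, and antisense 2 was above all sense samples but sense 4. The difference was 0.36 (SE 0.19, interval -0.07 to 0.79, adjusted p = 0.39). The second feature, 25855, read 42.6, 63.6, 50.1 and 98.1 in sense replicates 1 to 4, against 36.9, 70.7, 34.3 and 38.3 in antisense replicates 1 to 4, a difference of 0.49 (SE 0.21, adjusted p = 0.34). The features agreed across samples (r = 0.98). Single samples moved these values: the differences of features 8640 and 25855 were 0.27 and 0.34 without sense 4, 0.50 and 0.64 without antisense 2, and 0.16 and 0.29 without antisense 4. Samples with Cy5 read higher than those with Cy3, by 0.67 and 0.66 on the log2 scale, although antisense 4, also labelled with Cy5, stayed close to the Cy3 samples of its construct. The part of the dye and of single cultures in these levels was not tested.

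NES, nestin, which copolymerises with vimentin in dividing progenitors, had the largest difference among the members. Its only feature read 0.362, 0.510, 0.226 and 0.233 in sense replicates 1 to 4, against 0.179, 0.318, 0.154 and 0.150 in antisense replicates 1 to 4. These readings were 2.48 to 20.4 times the inferred detection limits of their samples. Every sense sample was above antisense 1, 3 and 4, and antisense 2 again reached into the sense range, above sense 3 and sense 4. The means were 28.23 ± 0.56 and 27.50 ± 0.51 (log2 intensity, SD, n = 4 each), 1.65-fold higher in sense, with a difference of 0.72 (SE 0.31, interval 0.04 to 1.40, adjusted p = 0.34). The difference was 0.78 within Cy3 and 0.66 within Cy5. Leaving out sense 4 gave 0.96 and leaving out antisense 2 gave 0.95. It fell to 0.51 without sense 2, 0.52 without antisense 4 and 0.57 without sense 1. In the 3 against 3 samples it was 1.11, or 2.16-fold.

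STMN2, a microtubule-destabilising protein of growing axons, was higher in sense on both features, with sense 4 far above the rest. Feature 5052 read 1.68, 1.69, 1.36 and 3.34 in sense replicates 1 to 4, against 1.01, 1.69, 1.21 and 1.14 in antisense replicates 1 to 4. The other sense samples lay above antisense 1, 3 and 4 but not above antisense 2, which equalled sense 2, and sense 4 was 2.13 times the mean of the other sense samples. The difference was 0.61 (SE 0.22, interval 0.12 to 1.11, adjusted p = 0.30), 0.38 without sense 4 and 0.47 without antisense 4, values that did not pass either. Feature 41311 read 1.15, 1.08, 1.15 and 2.32 in sense replicates 1 to 4, against 0.814, 1.28, 0.866 and 0.748 in antisense replicates 1 to 4, a difference of 0.57 (SE 0.24, adjusted p = 0.33), which was 0.33 without sense 4 and 0.39 without antisense 4. Both features followed one another across the 8 samples (r = 0.96).

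MAP1B, a microtubule-associated protein of early axons, also had its highest value in sense 4 on both features. Feature 20743 read 0.700, 0.920, 0.673 and 1.13 in sense replicates 1 to 4, against 0.716, 0.714, 0.591 and 0.630 in antisense replicates 1 to 4. The Cy3 samples overlapped, and only the sense samples with Cy5 stood above all antisense samples. The difference was 0.34 (SE 0.16, adjusted p = 0.37), which was 0.08 within Cy3 and 0.60 within Cy5. Feature 23950 differed by 0.25 (SE 0.19, adjusted p = 0.52), by -0.04 within Cy3 and by 0.55 within Cy5. Without sense 4 the differences were 0.23 and 0.07, and in the 3 against 3 samples 0.23 and 0.08, so the second feature was near 0 without that sample. Without antisense 4 they were 0.25 and 0.16.

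TUBB3, the beta-tubulin isotype used as a neuronal marker, had small differences, and its features disagreed over samples. Feature 8085 read 14.2, 18.2, 13.3 and 10.9 in sense replicates 1 to 4, against 11.8, 12.3, 12.5 and 12.8 in antisense replicates 1 to 4. The sense samples held both the highest and the lowest value, and the antisense samples lay close together. The difference was 0.17 (SE 0.16, interval -0.17 to 0.52, adjusted p = 0.59). Feature 31719 ranged from 1.95 to 3.92 in sense and from 1.77 to 3.17 in antisense, with a difference of 0.19 (SE 0.17, adjusted p = 0.58), and it was higher with Cy5 by 0.58. Without sense 2 the differences were 0.03 and 0.05, and without sense 4 they were 0.32 and 0.28. The correlation between the features was 0.52 over the 8 samples.

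**Figure D2:**
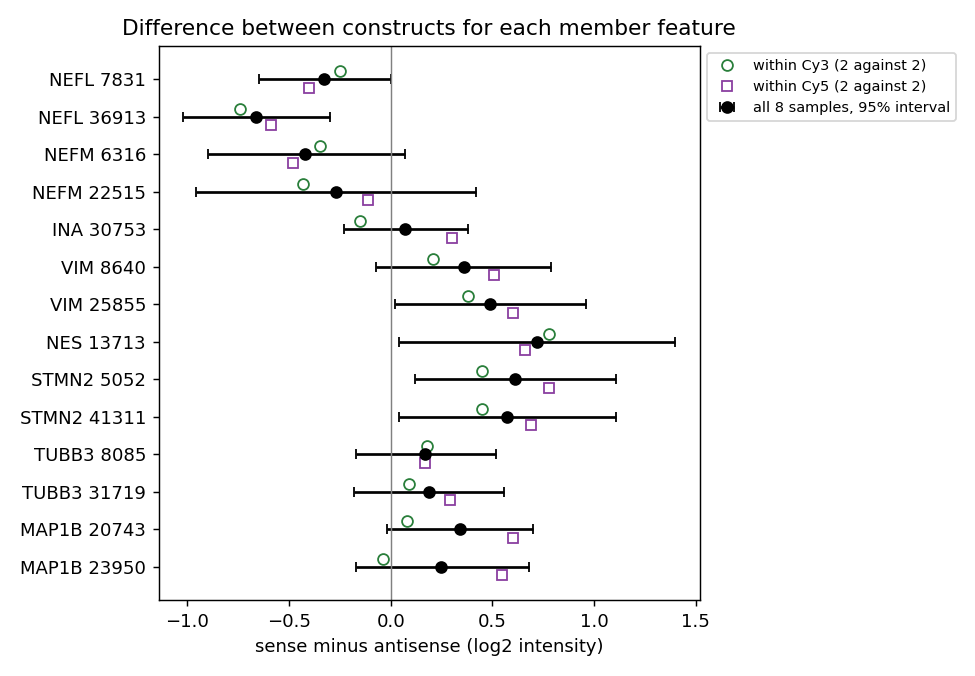
Sense minus antisense difference (x axis, log2 intensity) of each of the 14 features, with the 95% interval from all 8 samples in black, and the difference of 2 against 2 samples within Cy3 (green circles) and within Cy5 (purple squares). The estimates of the NEFL and NEFM features lie below 0, those of VIM, NES and STMN2 above it, and that of INA near it at 0.07. The intervals of both NEFM features and of VIM feature 8640 include 0, as do those of INA, TUBB3 and MAP1B. The interval of NEFL feature 7831 ends near 0.

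Over the list, 0 of 14 features passed in limma with all 8 samples, where 17 of 25094 features, or 0.0677%, did, and adjusted p-values of the members ran from 0.23 to 0.81. At an unadjusted p under 0.05 there were 6 member features, of NEFL (both), VIM, NES and STMN2 (both), against a background of 14.2% of all features. Features of a gene share their RNA samples and are no independent evidence. By the brightest feature of each gene, 6 of 8 members were higher in sense and 2 lower, with a median difference of 0.26, where 5528 of 11627 genes detected in both constructs were higher and the median was -0.02. A total of 1 of 14 features had constructs that did not overlap, against 6.39% of all features. That share, 7.14%, is near the background.

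In the 3 against 3 samples that the design text keeps, limma placed 4 of the 14 features past the threshold, against 4.25% of all features. These were NEFL feature 36913, lower in sense (log2 difference -0.56, adjusted p = 0.045), and, higher in sense, NES (1.11, adjusted p = 0.047), VIM feature 25855 (0.50, adjusted p = 0.048) and STMN2 feature 41311 (0.48, adjusted p = 0.048). The second features of NEFL, VIM and STMN2 had the same sign, at -0.18, 0.40 and 0.49, and did not pass. The submitters' method, SAM with a filter of 1.4-fold, called NES at its stricter false discovery rate of 5.4% (background 1.67%) and NES with STMN2 feature 5052 at 10.3% (background 6.18%). Within the Cy3 samples, limma called NEFL feature 36913 and STMN2 feature 41311 (background 11.5%), and within the Cy5 samples it called 0 members (background 0.0159%). All 4 adjusted p-values of the 3 against 3 samples lie just under the threshold, and the 6 samples are part of the 8. The left-out samples were picked, in these same data, for the lowest spread among the remaining 3. That choice lowers the spread that limma and SAM use there, so their calls on this set are too favourable and are no separate support.

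The members varied differently from sample to sample. VIM, STMN2 and MAP1B had their highest value in sense 4 on all 6 of their features, and the correlations between features of different genes among them were 0.80 to 0.90 over the 8 samples. Sense 4 was 1.49 to 2.13 times the mean of the other sense samples on these features. The same sample was the lowest of all 8 for NEFL, on both features, for NEFM feature 6316 and for TUBB3 feature 8085. NES and both TUBB3 features were highest in sense 2 instead. Antisense 2 was the highest antisense sample on 9 of 14 features, with 1.98 times the mean of the other antisense samples for NES and 1.88 and 1.94 times for VIM. NEFL feature 36913 was flat in that sample, at 1.01 times.

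**Figure D3:**
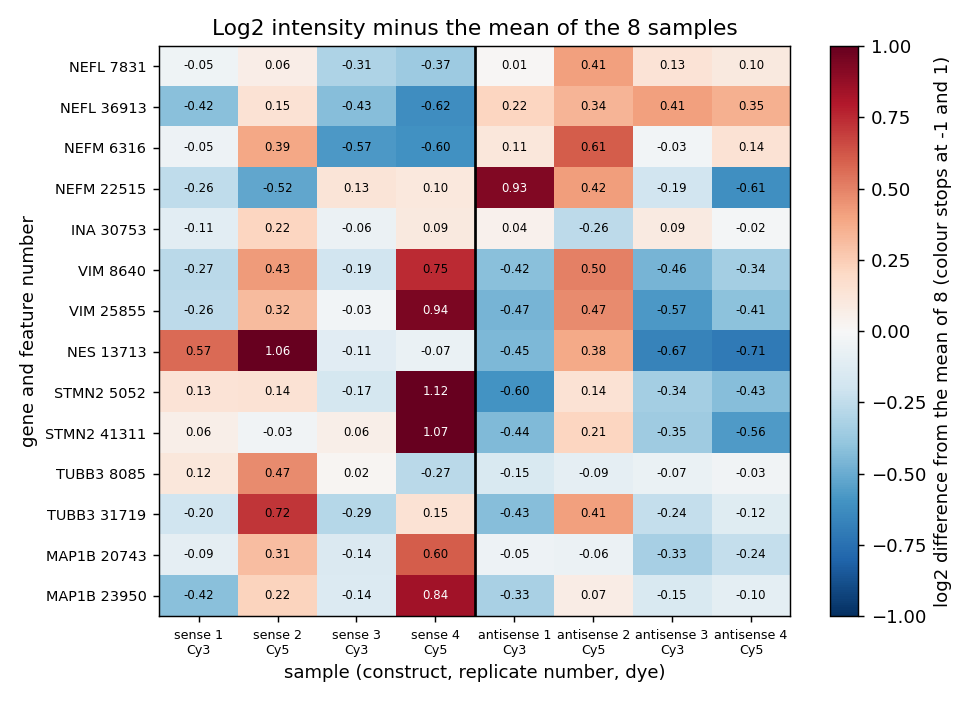
Log2 intensity of each feature (rows) in each sample (columns, with dye) minus its mean over the 8 samples, with the value printed in each cell and the colour scale stopping at -1 and 1. Sense 4 is high for VIM, STMN2 and MAP1B and low for NEFL and for NEFM feature 6316, while antisense 2 is high for VIM and NES.

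Genes with a pattern like that of a member were named by the Pearson correlation over the 8 samples among 18397 other features of genes detected in both constructs. For NEFL feature 36913 they were SMUG1 (r = 0.989), CD109 (0.980), DCAF5 (0.978), SLC19A1 (0.977) and MOGS (0.977), and 213 features exceeded 0.9. For NEFM feature 6316 they were LSM12, NAP1L4, NKD2, JRK and ZC3H13, from 0.976 to 0.978, with 86 features over 0.9. VIM feature 8640 was most like NR3C1, SLC12A4, MIER2, TBCC and PDCD7, from 0.980 to 0.983, with 294 over 0.9. With 8 samples and this many candidates such values describe a likeness and no more.

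Of the 11627 genes detected in both constructs, 15% had an unadjusted p under 0.05, which is the background for the lists that follow. Of the other intermediate filament genes, 13 were detected in both constructs, 5 higher and 8 lower in sense, with a median of -0.14, and 0 passed (2, or 15.4%, at an unadjusted p under 0.05). SYNM, synemin, which is built into filaments of vimentin and desmin, read 0.128 to 0.151 in sense and 0.0506 to 0.0967 in antisense. All sense samples were above all antisense samples, 1.98-fold on average (difference 0.99, SE 0.21, adjusted p = 0.21). The antisense readings lay close to the inferred detection limits of those samples, 0.047 to 0.0723, so the size of this difference is uncertain. DST, dystonin, a plakin that links filaments to the rest of the cytoskeleton, also had separate groups, with a difference of 0.55 (SE 0.17, adjusted p = 0.28). LMNB2, of the nuclear lamina, and KRT10, a keratin, differed by -0.30 and -0.29 (adjusted p = 0.36 and 0.39).

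Of 24 detected neuronal microtubule and axon genes, 12 were higher and 12 lower, with a median of 0.00, and 0 passed (8, or 33.3%, at an unadjusted p under 0.05). The related actin-binding membrane proteins MARCKSL1 and MARCKS went opposite ways. MARCKSL1 read 11.2 to 17.6 in sense and 7.52 to 10.5 in antisense, without overlap (difference 0.77, SE 0.17, adjusted p = 0.22), and MARCKS differed by -0.65 (SE 0.22, adjusted p = 0.29). ENO2, the neuronal enolase, differed by 0.59 (SE 0.17, adjusted p = 0.27) and DPYSL2, a tubulin-binding protein of axon growth, by -0.51 (SE 0.15, adjusted p = 0.27).

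Among synaptic and secretory vesicle genes 11 of 13 detected genes were higher in sense, with a median of 0.15, but 0 passed (1, or 7.69%, at an unadjusted p under 0.05, which is below the background). That 1 was GPHN, the scaffold of inhibitory synapses, with a difference of 0.53 (adjusted p = 0.33), followed by DLG4 at 0.59, VAMP2 at 0.56 and SV2A at 0.18. Of 25 detected neuronal transcription and RNA regulators 18 were higher, with a median of 0.14, and 0 passed (6, or 24%, at an unadjusted p under 0.05). INSM1, a zinc finger factor of neuroendocrine and neuronal precursors, differed by 0.85 (SE 0.23, adjusted p = 0.25), and PTBP2, a neural splicing regulator, by -0.48 (SE 0.17, adjusted p = 0.30). LHX2 and NOVA1 differed by 0.50 and 0.44 (adjusted p = 0.34 each).

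The label of the cells was set against markers. Of 9 kidney epithelium markers, LHX1 was detected in both constructs, PAX2 and CDH16 lay under the detection limit, and 6 had no value. In a longer kidney list of 29 genes, 17 had values and 11 were detected in both constructs, so some genes of this list gave signal. Of all 13469 genes with values, 11627 were detected in both constructs. That share was larger than in the longer kidney list (11 of 17) and among the neuronal markers (8 of 10 with values). It was smaller than among the progenitor (5 of 5) and sympathoadrenal (4 of 4) markers with values. Detection alone does not tell the cell type. Of 16 neuronal markers, 8 were detected in both constructs, MAP2 and ELAVL3 lay under the limit and 6 had no value, and all 5 progenitor markers (NES, VIM, SOX2, PAX6 and MSI1) were detected. Sympathoadrenal PHOX2A, a factor of noradrenergic neurons, read 901 to 2740 times the limit, and TH, which makes the precursor of catecholamines, 2.88 to 10.7 times. The astrocyte filament gene GFAP was detected at 28.3 to 62.5 times the limit, while the glial factor SOX10 lay under it. The 3 adrenal cortex markers had no value. In a longer adrenal cortex list of 9 genes, 1 had values, CYP11B1, and it was detected in both constructs. Of the mesenchymal and endothelial markers COL1A1 was detected at 1.67 to 13.6 times the limit, whereas COL1A2, PECAM1 and CDH5 lay under it. These ratios differ with the probe and say nothing of the order of transcripts.

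**Figure D4:**
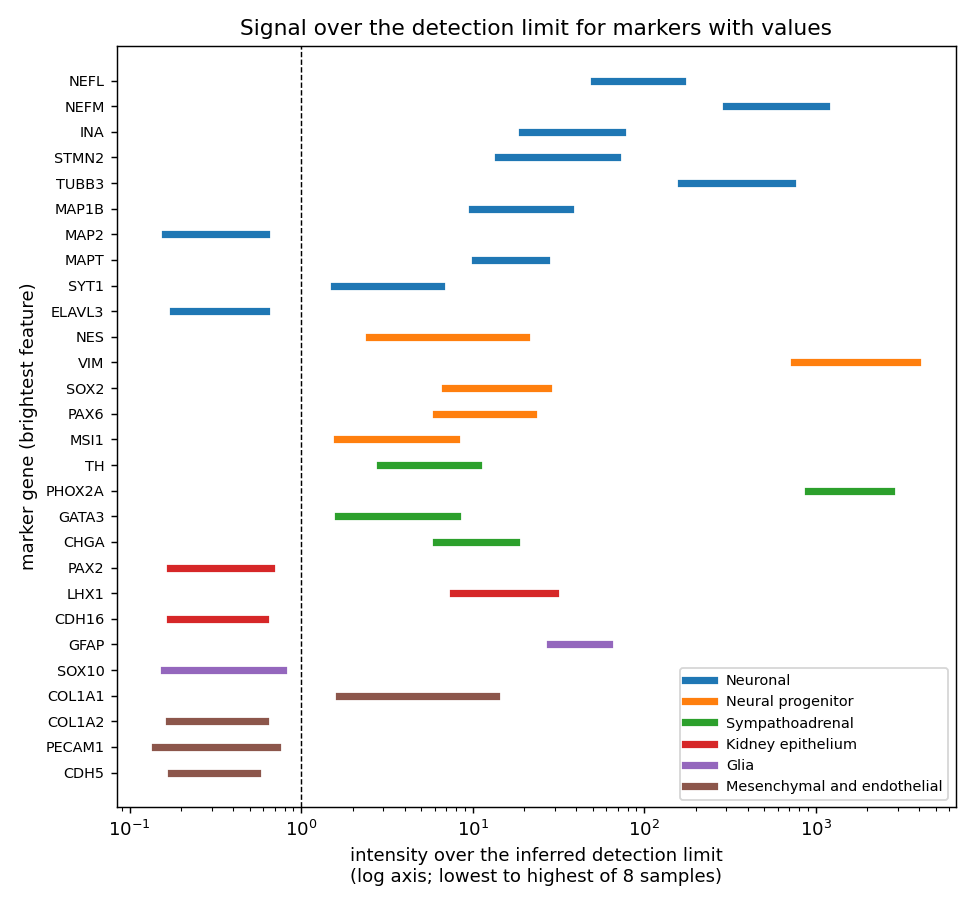
Lowest to highest ratio of intensity to the inferred detection limit over the 8 samples (x axis, log scale) for the brightest feature of each marker gene with values (y axis), coloured by cell type, with the limit as a dashed line at 1. The neurofilament, progenitor and PHOX2A bars lie above the limit, and those of MAP2, ELAVL3, PAX2, CDH16, SOX10, COL1A2, PECAM1 and CDH5 lie below it.

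Between the constructs, the marker lists and the longer gene lists were compared. The mean log2 intensity of the detected neuronal markers ran from 30.54 to 30.99 in sense and from 30.75 to 30.88 in antisense samples, a difference of 0.01. All of these markers but MAPT and SYT1 are members, so the mean is no separate view of them. In it NEFL (-0.66) and NEFM (-0.42) offset members such as STMN2 (0.61) and MAP1B (0.34). The mean of the progenitor markers ran from 29.72 to 30.27 in sense and from 29.36 to 30.11 in antisense, a difference of 0.36, in which NES and VIM take part. Catecholamine and sympathoadrenal genes had a median of -0.01 over 6 detected genes (HAND1 0.19, PHOX2A -0.16, PNMT -0.15 and GATA2 -0.05) and kidney genes one of -0.07 over 11, with PODXL at -0.40, EYA1 at 0.42, WT1 at 0.25 and AQP1 at 0.28. These 6 and 11 genes are those detected of 18 and 29 listed. Of them 0 passed, and 0 and 2 (18.2% of the 11) had an unadjusted p under 0.05. The 3 detected glial genes were lower by -0.24 (GFAP), -0.14 (OLIG1) and -0.08 (SLC1A3), and CYP11B1 of the adrenal cortex differed by -0.24. ACTA2, the smooth muscle actin gene, was 2.43-fold higher in sense (difference 1.28, SE 0.22, adjusted p = 0.10), at 0.765 to 1.62 against 0.372 to 0.765, while COL1A1 differed by -0.39 (SE 0.37, adjusted p = 0.60).

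**Figure D5:**
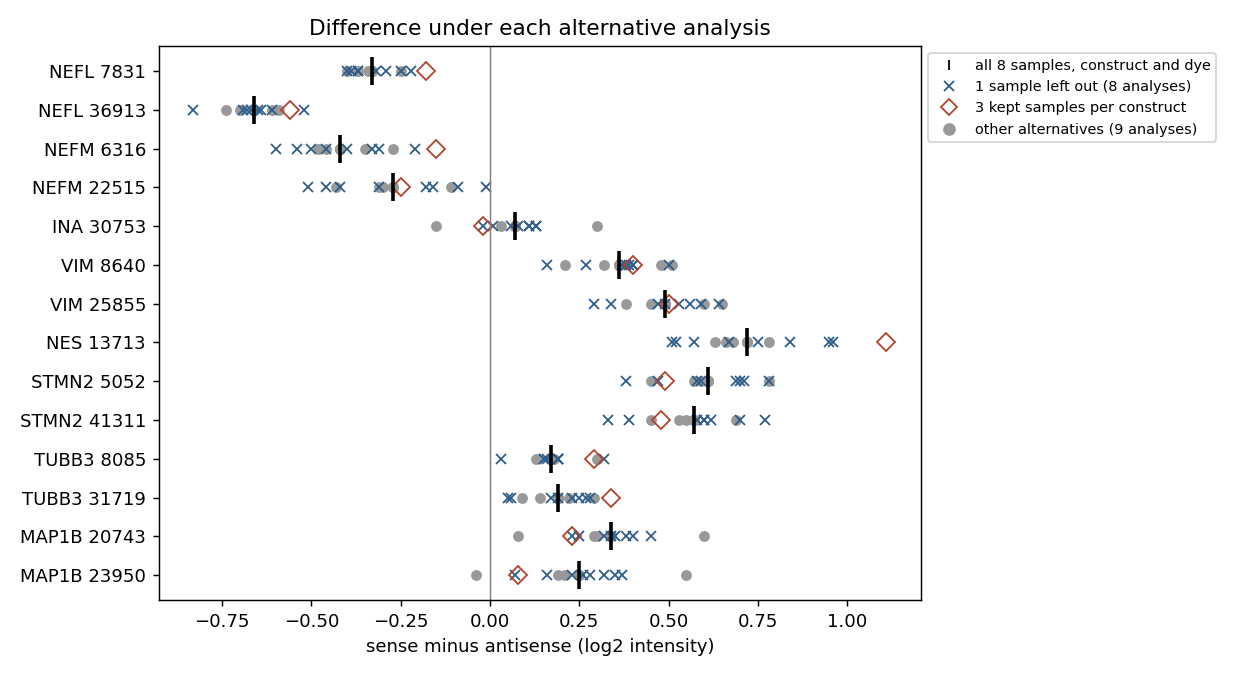
Sense minus antisense difference (x axis, log2 intensity) of each feature with all 8 samples (black bars), with 1 sample left out (blue crosses), with 3 kept samples per construct (red diamonds) and under the other alternatives (grey circles). NEFL and NEFM stay below 0 and VIM, NES, STMN2 and TUBB3 above it throughout, while INA and MAP1B feature 23950 cross it.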

How the data were processed

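Agilent Feature Extraction 9.5 is named in the submitters' processing notes. The deposited values are linear intensity values that the authors scaled between samples by a 40% trimmed mean, per the design text; whether background or dye was corrected is not stated there, and the absolute scale is unknown. Of 45015 features 25094 had values in all samples. Detection limits were inferred from the authors' filter, as the cut-offs that leave the fewest features (1 in sense, 0 in antisense) above them in only some samples of a construct. They were 0.025 to 0.0723 (units of 1000000000), and all 14 member features exceeded them in every sample.

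Titles gave the orientation, and with it the group. Log2 intensities were fitted with limma 3.58.1 in R 4.3.3 (construct and dye, eBayes with trend), with Benjamini-Hochberg adjustment over 25094 features. Tested on simulated data of 25094 features in this comparison, it recovered 50% of features changed by 1 on the log2 scale and 95% of those changed by 2. The SAM statistic was coded anew and used all 20 ways of labelling 3 against 3 samples. Gene names are those of the platform annotation. Of other lists, the up to 4 detected genes with the smallest p are named by their brightest feature. The members and lists were chosen with earlier results of these data known. The number of arrays limits the precision. Column medians were equal or nearly so between samples 1 and 2 and between 3 and 4 of a construct (0.579 and 0.590 in sense), so these pairs were also fitted as random blocks. Other alternatives were dye, scaling, trend, detection filter, replicate block and left-out samples.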

Additional observations from a re-analysis of the deposited data

Results flagged for a closer look

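In 3 of 28 sets of 4 values a single sample stood apart by Dixon's ratio of its gap to the range of its construct (above the critical value for 4 samples), and chance gives about 1 set in 20 with values of this kind. Antisense 2 stood above the other antisense samples on both VIM features, with ratios of 0.873 for feature 8640 and 0.847 for feature 25855. Sense 4 stood above the other sense samples on STMN2 feature 41311, with a ratio of 0.918. The features of VIM read the same RNA, so their flags are not independent.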

How the results depend on the processing

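The 14 member features were refitted under 18 alternatives each, 252 in all. The difference kept its sign and its side of the threshold in 242, newly passed in 6 and changed sign in 4. The sign changes were those of INA within Cy3 (-0.15), with 3 kept samples per construct (-0.02) and without antisense 2 (-0.02, the lowest of -0.02 to 0.13 with 1 sample left out), and of MAP1B feature 23950 within Cy3 (-0.04). Member features past the threshold numbered 0 with all 8 samples, 2 within Cy3 (NEFL 36913 and STMN2 41311, background 11.5%), 0 within Cy5, 4 with 3 kept samples per construct, 1 by SAM at 5.4% and 2 by SAM at 10.3%, and 0 whichever of the 8 samples was left out. Over all features the count was 17 with all samples, 2888 within Cy3, 4 within Cy5, 7 with samples 1 and 2, and 3 and 4, as random blocks (correlation 0.247), 10 without the mean-variance trend, 1 with detected features only, 1066 with 3 kept samples per construct, 420 and 1550 by SAM, and 4 to 20 with 1 sample left out. It was 12 after quantile normalization and 15 after median centring, and neither changed the sign of a member. The cause of these changes was not tested.

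The replicate block gave 7 features over the whole table and changed no member's call. Same-numbered samples correlated at 0.28, 0.00, 0.11 and -0.11 in their deviations from the construct means and, adjusted for dye, at -0.01, -0.17, -0.01 and -0.17, so the numbers were not taken to pair the samples. NES ran from 0.51 to 0.96 and NEFL feature 36913 from -0.83 to -0.52 with 1 sample left out. NEFM feature 22515, near the limit, came to -0.01 in the same analyses.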
